A study of Mus musculus with 4 samples.

Results

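The genes described here are 10 regulators of endoplasmic reticulum (ER) stress and of the secretory pathway, chosen by name from the 23946 gene symbols that each library lists: *Atf6*, *Xbp1*, *Atf4*, *Ddit3*, *Creb3l1*, *Creb3l2*, *Hspa5*, *Calr*, *Canx*, and *Sec24d*. They were measured by bulk RNA-seq in CD51+;CD200+ cells, a skeletal stem/progenitor population sorted by FACS from wild type CD-1 mice at postnatal day 3. Cells came from the posterior frontal (PF) suture, which fuses in early life, from the sagittal (SAG) and coronal (COR) sutures, which stay patent, and from the growth plate (GP) of the tibia, the reference outside the skull. The sort left out cells with the blood antigens CD45 and Ter119, with Tie2, 6C3, or CD105, and with either form of Thy1, and no cells were treated. Each tissue gave 1 library, so the libraries PF, SAG, COR, and GP carry no replicate error, no difference between them was tested, and a tissue cannot be told apart from its library. All 10 genes were at 1 FPKM or more in every library. FPKM counts fragments scaled for transcript length and for the size of the library.

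Cells that make bone and cartilage matrix push large amounts of collagen and glycoproteins through the ER. When unfolded proteins accumulate there, 3 sensors respond: IRE1 splices the *Xbp1* mRNA, ATF6 is cut free in the Golgi to enter the nucleus, and PERK slows translation while favouring that of *Atf4*. ATF4 can in turn raise *Ddit3* (CHOP). CREB3L1 (OASIS) and CREB3L2 (BBF2H7) are cut in the same way as ATF6 and are known for driving secretory genes in osteoblasts and chondrocytes, respectively. BiP (*Hspa5*), calreticulin (*Calr*), and calnexin (*Canx*) fold the cargo, and SEC24D packs cargo such as procollagen into COPII vesicles. Gene-level FPKM gives the RNA of these genes, not *Xbp1* splicing, ATF6 or CREB3L cleavage, or ATF4 translation.

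The chaperone genes are classic targets of the sensors through short promoter elements, so the elements found in the members are shown before the levels. RefSeq promoter windows, from 250 bases before to 50 bases after a gene start, were available for 8 of the 10 genes (table of GRCm38.p6), and 4 of these held a searched motif on either strand. *Atf6* and *Creb3l1* had no window. The ER stress response element (ERSE), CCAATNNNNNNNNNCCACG, was in 3 of them. The XBP1 and ATF6 core, TGACGTGG, was in *Sec24d*. Each site was placed on mm9 by an exact match of its sequence, found at 1 place in the genome, and capitals mark the fixed letters of the motif.
Hspa5, chr2:34627540-34627568, + strand: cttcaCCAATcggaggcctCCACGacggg
Calr, chr8:87370969-87370997, + strand: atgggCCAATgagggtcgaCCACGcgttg
Canx, chr11:50139297-50139325, - strand: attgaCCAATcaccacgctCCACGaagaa
Sec24d, chr3:122970378-122970405, + strand: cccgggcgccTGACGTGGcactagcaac
The motif began 65 bases upstream of the RefSeq start of *Hspa5*, 145 bases upstream of that of *Canx*, and 26 bases upstream of that of *Sec24d*, on the strand of the gene. In *Calr*, a gene of the minus strand, it read on the opposite strand and reached to 162 bases upstream. The *Hspa5* site lies within the gene model of the GENCODE annotation of mm9, which starts farther upstream, and the other 3 lie outside their gene models. The ERSE was in 39 of all 32851 windows (0.119%) and TGACGTGG in 222 (0.676%). Its second form, ATTGGNCCACG, was in 12 windows (0.0365%), and the amino acid response element that ATF4 can bind, TGATGNAA, in 1304 (3.97%). A match is a description of letters, not of binding.

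Levels are FPKM, and ratios are differences of log2(FPKM + 1), which understate the change of low genes. A gene was counted as different where a pair of libraries lay 3-fold or more apart (1.58 on this scale) and either of them was at 1 FPKM or more. Between their highest and lowest library, 2 of the 10 genes were 3-fold or more apart, *Creb3l1* and *Sec24d*. The corresponding share of all 9802 genes with 5 FPKM or more in at least 1 library was 24.8%. For 4 genes, *Atf4*, *Hspa5*, *Calr*, and *Canx*, the libraries lay within 1.5-fold of each other, against 26.4% of all genes. This count fell to 3 with FPKM rescaled to an equal sum and to 2 after quantile normalization, as *Hspa5* and then *Atf4* passed 1.5-fold. SAG was the lowest library for 5 genes (background 30.3%) and the highest for 3 (26.6%). COR was the highest for 6 (22.1%), and PF was the lowest for 3 (34.3%) and the highest for 0 (34.8%). For *Atf6* and *Calr*, counted as lowest in SAG, PF was close, with log2 ratios of 0.01 and 0.07 for PF vs SAG. With FPKM rescaled to an equal sum, PF fell below SAG for both (-0.26 and -0.23), and for *Calr* also after quantile normalization (-0.40). *Canx* and *Calr* were counted as highest in COR. For *Canx*, COR fell below SAG with FPKM rescaled to an equal sum (-0.06) and after quantile normalization (-0.07), and for *Calr* after quantile normalization (-0.11). The counts of lowest and highest libraries thus depend on the scaling. The count of genes 3-fold apart is near the share of all genes, and the count within 1.5-fold is above its share by between 1 and 2 genes, an excess that was not there after quantile normalization. In sorted bulk samples, fewer cells of a type and less RNA per cell cannot be told apart.

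**Figure D1:**
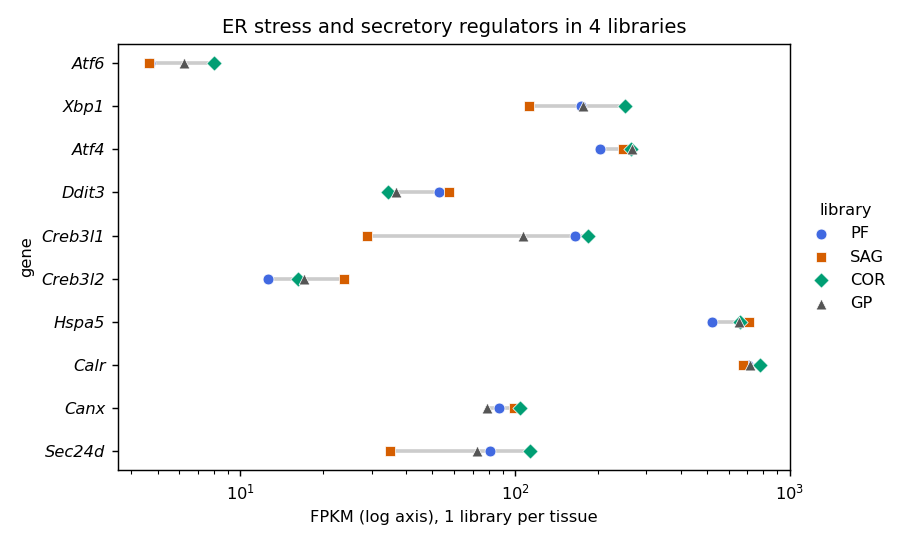
FPKM (log axis) of the 10 genes in the PF, SAG, COR, and GP libraries, 1 point per library, with a grey line from the lowest to the highest. *Creb3l1* spans from 28.9 in SAG to 184 in COR and *Sec24d* from 34.9 to 114, while the points of *Calr* lie between 674 and 776; the PF point of *Atf6* is hidden behind that of SAG.

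The libraries differed in other respects that touch these values. The genes of the sorted antigens were present, *Itgav* (CD51) between 6.20 and 15.0 FPKM and *Cd200* between 23.5 and 62.6, and of the antigens sorted against, *Ptprc* (CD45), *Tek* (Tie2), and *Thy1* were below 1 FPKM in every library. *Enpep* (6C3), also sorted against, was between 1.39 and 7.05 FPKM, highest in PF, and *Eng* (CD105) between 0.68 and 1.70. Depth was read from the worth of a single fragment in the low values, and relative to SAG, the deepest library, it came to 44.1% for PF, 87.9% for COR, and 82.0% for GP. By this estimate the 10 genes rest on between 595 fragments (*Atf6* in PF, a counting error of 4.1%) and 71303 (*Hspa5* in SAG), so counting error is small beside the ratios below, but it covers neither cell sorting nor amplification. The summed FPKM of 8 osteoblast markers was 2731 for PF, 887 for SAG, 11851 for COR, and 8184 for GP, with COR the highest for 8 and SAG the lowest for 6. *Spp1* made up most of each sum, at 1649, 617, 8324, and 6882 FPKM. Single markers did not all follow the sums: *Runx2*, *Alpl*, and *Bglap* were higher in PF (18.9, 461, and 426) than in GP (18.1, 258, and 159). *Sp7*, *Ibsp*, *Dmp1*, and *Phex* were, like *Spp1*, lower in PF than in GP. The summed FPKM of 11 chondrocyte markers was 202, 5448, 187, and 3489 for PF, SAG, COR, and GP, with SAG the highest for 7. That of 8 choroid plexus and neural markers was 481, 5341, 157, and 13.2, with SAG the highest for 6. *Ttr*, a choroid plexus gene, alone had 5103 FPKM in SAG. The neural genes were low, with *Tubb3* highest in COR (10.2 FPKM), *Stmn2* highest in GP (0.96), and *Snap25* highest in SAG (2.21). Summed levels ranged from 59.3 in SAG to 801 in PF for 4 smooth muscle markers, from 536 to 758 for 4 osteoclast markers, from 7.13 to 50.5 for 7 hematopoietic markers, and from 1.10 to 16.9 for 5 endothelial markers. Within the osteoclast markers, *Mmp9* was highest in SAG (301 FPKM), where *Ctsk* (229) and *Acp5* (14.3) were lowest. Of the plasma cell markers, *Prdm1*, *Igj*, and *Mzb1* were at 0.30 FPKM or less in every library, while *Sdc1* was between 66.9 and 162. *Col1a1*, *Col1a2*, *Col3a1*, and *Sparc*, abundant secreted matrix genes, are listed at 0 in COR, and *Col1a2* also in GP, while in the PF and SAG libraries they lie between 533 FPKM (*Col3a1* in SAG) and 9849 (*Sparc* in PF). A listed 0 can be a failed estimate, so it is not read as an absence, and these genes enter the sums used when libraries are rescaled to an equal sum. The part of these differences in the values below was not tested.

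*Creb3l1* (mm9 chromosome 2, 91822485 to 91864659, minus strand) varied most. PF-CD51+;CD200+ cells had 165.6 FPKM, SAG-CD51+;CD200+ cells 28.9, COR-CD51+;CD200+ cells 184, and GP-CD51+;CD200+ cells 107. SAG stood alone at the low end. The log2 ratio was 2.63 for COR vs SAG and 2.48 for PF vs SAG, or 6.38 and 5.73 times the FPKM of SAG, and -1.85 for SAG vs GP. Ordered from the highest ratio, it was number 118 of 12720 genes for COR vs SAG and number 184 of 13490 for PF vs SAG. PF and COR differed by 0.15, and PF and GP by 0.63, but with the GC correction these came to 0.52 and 0.14, so whether PF lay nearer to COR or to GP depended on that correction. The order SAG, GP, PF, COR from low to high was the same under every scaling, filter, and correction tried, and without SAG the 3 other libraries lay within 0.78.

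*Creb3l2* (chromosome 6, 37277255 to 37392146, minus strand) had its highest level where *Creb3l1* had its lowest. PF had 12.7 FPKM, SAG 23.7, COR 16.2, and GP 17.0, a span of 0.86 that did not reach 3-fold. COR and GP differed by 0.07. Within a library, *Creb3l1* FPKM was 13.1 times that of *Creb3l2* in PF, 1.22 times in SAG, 11.4 times in COR, and 6.29 times in GP, so that only in the SAG library were the 2 FPKM values of similar size. Such a ratio within a library does not change when each library is multiplied by its own factor, but quantile normalization or a GC correction can change it.

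Over the 5 genes of the CREB3 family, *Creb3l1* made up 48.0% of the summed FPKM of PF, 23.3% of SAG, 56.8% of COR, and 43.3% of GP. *Creb3l2* made up 3.67%, 19.1%, 4.97%, and 6.89% in the same order. *Creb3*, the founding member of the family, was above *Creb3l1* in SAG and GP, nearly level with it in PF, and below it in COR, at 167, 68.9, 120, and 119 FPKM in PF, SAG, COR, and GP. The sum over the family was lowest in SAG, at 124 FPKM against 247 to 345 in the others. *Creb3l4* was low throughout, listed at 0 in PF and at 1.68 FPKM in SAG, and was the family gene with the lowest log2 ratio for PF vs SAG (-1.42).

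**Figure D2:**
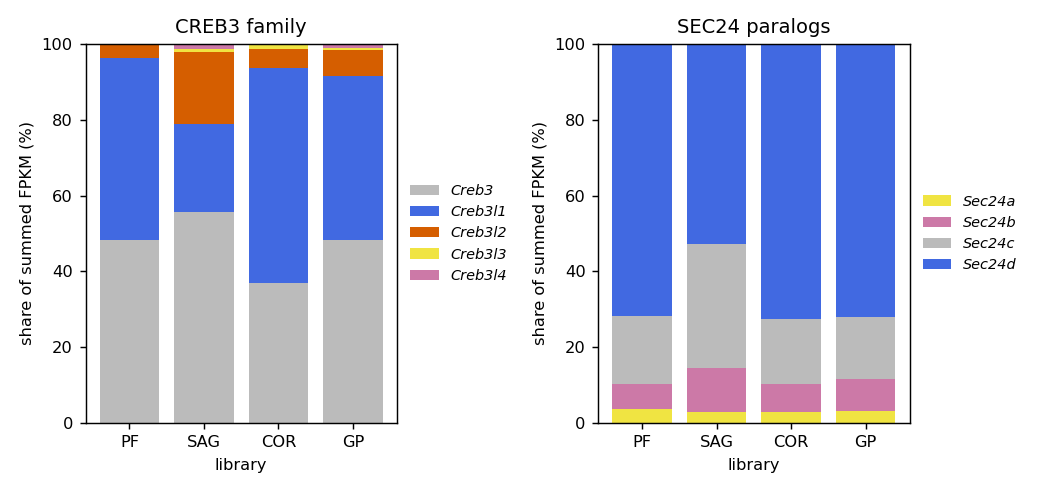
Share of the summed FPKM (%) taken by each CREB3 family gene (left) and each SEC24 paralog (right) in the 4 libraries, as stacked bars. *Creb3l1* takes 23.3% of its family in SAG against 43.3% to 56.8% elsewhere, and *Sec24d* 52.8% against 71.9% to 72.7%.

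*Sec24d* (chromosome 3, 122970414 to 123068553, plus strand), whose promoter element is printed above, was the other variable gene. PF had 81.0 FPKM, SAG 34.9, COR 114, and GP 72.9. SAG was again alone at the low end, PF and GP differed by 0.15, and COR was the highest. The log2 ratio was 1.67 for COR vs SAG, just past 3-fold, 1.19 for PF vs SAG, and -1.04 for SAG vs GP. With the FPKM of each library rescaled to an equal sum, the ratio of COR to SAG was 1.55, under 3-fold. *Sec24d* shares 323 of its 3856 exon bases with *Mettl14* on the opposite strand, and whether strand was used in counting is not given in the sources used here. *Mettl14* had 3.12 FPKM in the PF library, 10.6 for SAG, 5.70 for COR, and 6.69 for GP, low beside *Sec24d* and highest where *Sec24d* was lowest.

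Among the 4 SEC24 paralogs, which choose the cargo of COPII vesicles, *Sec24d* took 71.9% of the summed FPKM of PF, 52.8% of SAG, 72.7% of COR, and 72.0% of GP. *Sec24c*, the next most abundant paralog, was at 20.1, 21.6, 26.5, and 16.8 FPKM, so its share was the highest in SAG, at 32.6%, while its own level there lay within the range of the other libraries. The ratio of *Sec24d* to *Sec24c* was 4.03 for PF, 1.62 for SAG, 4.29 for COR, and 4.34 for GP. *Sec23a*, which encodes the inner coat partner of SEC24, was at 45.6, 36.3, 82.7, and 56.5 FPKM, and *Sar1a*, the GTPase that starts the coat, at 327, 168, 316, and 267. Both were lowest in SAG, while their less abundant paralogs were not: *Sec23b* was lowest in GP (25.5 FPKM, against 28.7 in SAG) and *Sar1b* in COR (67.9, against 75.9 in SAG).

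*Xbp1* (chromosome 11, 5420662 to 5425896, plus strand) encodes the factor that IRE1 activates by splicing. PF had 173 FPKM, SAG 113, COR 251, and GP 177. It followed the same order at the ends, SAG lowest and COR highest, with PF and GP 0.03 apart. The log2 ratio was 1.15 for COR vs SAG, 0.62 for PF vs SAG, and -0.65 for SAG vs GP, none of them 3-fold. Relative to *Hspa5* in the same library, *Xbp1* came to 0.333 for PF, 0.159 for SAG, 0.381 for COR, and 0.272 for GP.

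*Atf6* (chromosome 1, 172634588 to 172797902, minus strand) was the least abundant of the 10 genes. PF had 4.69 FPKM, SAG 4.63, COR 8.03, and GP 6.24, with a log2 ratio of 0.68 for COR vs SAG. PF and SAG differed by 0.01.

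*Atf4* (chromosome 15, 80085614 to 80087970, plus strand), the factor of the PERK branch, had 204 FPKM for PF, 248 for SAG, 263 for COR, and 267 for GP. The last 3 were close together and PF was the lowest, 0.39 below GP. *Ddit3* (chromosome 10, 126727830 to 126733344, plus strand), its target, had 52.7, 57.5, 34.4, and 36.7 FPKM, libraries in that order. The order COR, GP, PF, SAG from low to high held under every alternative tried, with log2 ratios of -0.73 for COR vs SAG and 0.60 for PF vs COR. PF lay close to SAG in these values (-0.12 for PF vs SAG). With the GC correction PF vs SAG came to -0.57 and PF vs COR to 0.38, so which libraries PF lay near depended on that correction. The ratio of *Atf4* to *Ddit3* was therefore lower in PF (3.87) and SAG (4.30) than in COR (7.64) and GP (7.28). *Ddit3* shares 68 of its 1713 exon bases with *Mars* on the opposite strand, which was at 53.7, 35.3, 49.1, and 31.1 FPKM.

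The chaperones were among the most abundant genes and varied little. *Hspa5* (chromosome 2, 34627490 to 34632051, plus strand) had 520 FPKM for PF, 707 for SAG, 659 for COR, and 652 for GP, a span of 0.44 that came to 0.85 after quantile normalization. *Calr* (chromosome 8, 87365749 to 87370833, minus strand), at 706, 674, 776, and 714 FPKM, had the smallest span of the 10 genes, 0.20. *Canx* (chromosome 11, 50107969 to 50139175, minus strand) was at 87.7, 98.7, 104, and 78.8 FPKM, a span of 0.40. SAG was the highest library for *Hspa5* and the lowest for *Calr*, and in COR vs SAG the small ratio of *Calr* (0.20) turned to -0.11 under quantile normalization. Within a library, *Calr* was between 6.83 (SAG) and 9.06 (GP) times *Canx*.

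By pair, 1 of the 10 genes was 3-fold apart between PF and SAG (*Creb3l1*), against 15.7% of 13490 genes, and 2 were 2-fold apart, against 34.7%. Between COR and SAG, 2 were 3-fold apart (*Creb3l1* and *Sec24d*), against 9.25%, and 3 were 2-fold apart with *Xbp1*, against 20.1%. Between PF and COR none of the 10 was 3-fold (background 11.7%) or 2-fold (29.4%) apart. Against GP, SAG had 1 gene 3-fold apart (*Creb3l1*, background 8.66%) and 2 genes 2-fold apart (18.0%), whereas PF (12.0% and 29.1%) and COR (4.40% and 9.95%) had none at either fold. Thus every difference of 2-fold or more among the 10 genes had SAG on one side, and these pairs share the SAG library. The median log2 ratio of the 10 genes, beside that of all genes, was -0.06 and 0.03 for PF vs SAG, 0.14 and -0.02 for COR vs SAG, and -0.33 and 0.05 for PF vs COR. It was -0.02 and 0.03 for PF vs GP, -0.10 and 0.03 for SAG vs GP, and 0.22 and 0.02 for COR vs GP. For PF vs COR, 9 of the 10 ratios were below 0, *Ddit3* being the exception, and with the GC correction *Canx* also came above 0 (0.10).

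**Figure D3:**
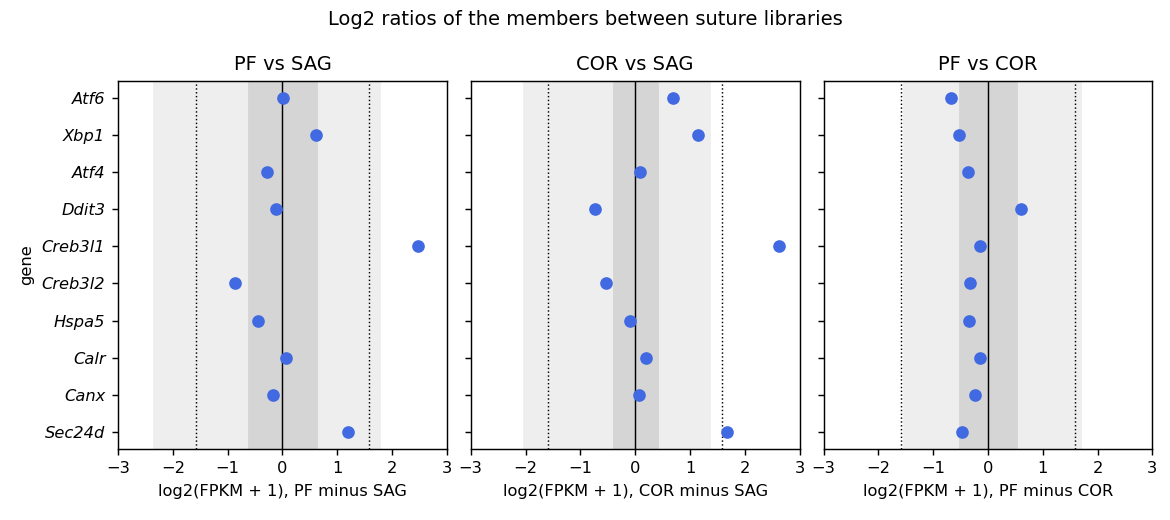
Log2(FPKM + 1) ratio of each of the 10 genes for PF vs SAG, COR vs SAG, and PF vs COR, with dotted lines at 3-fold and dark and light bands for the middle 50% and 90% of genes at 5 FPKM or more in either library. *Creb3l1* lies at 2.48 and 2.63 in the comparisons with SAG, *Sec24d* at 1.19 and 1.67, and no gene reaches 3-fold between PF and COR.

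The wider pathway was described by lists of named genes, as counts and medians of log2 ratios for COR vs SAG, where the median over all genes was -0.02. The lists overlap and are not separate evidence. *Sec24d* is also in the COPII list, and *Calr* and *Canx* are in the lectin list. *Sec61b* and *Ssr3* are in both the translocon and IRE1 lists, and *Sel1l* is in both the ATF6 and degradation lists. All 16 genes of the translocon and of signal peptide processing, the entry gate of the ER, had ratios above 0, with a median of 0.84. Of the COPII coat and its cargo receptors, 20 of 22 genes were above 0 (median 0.81), and 12 of 13 of the COPI coat, which returns vesicles from the Golgi (0.83). In the IRE1 and XBP1 branch 12 of 14 were above 0 (0.85). These counts were the same under every scaling. SAG was the lowest of the 4 libraries for 14 of 16 translocon genes, 11 of 13 COPI genes, 15 of 21 COPII genes, and 10 of 13 genes of the IRE1 branch at 5 FPKM or more, with 30.3% for all genes. These lowest-library counts were not recomputed under other scalings. For PF vs SAG, the genes above 0 fell with FPKM rescaled to an equal sum from 18 to 14 of 22 in the COPII list. They fell from 11 to 9 of 13 in the COPI list and from 11 to 10 of 13 in the IRE1 list, and stayed at 14 of 16 for the translocon.

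Few of these genes were 3-fold apart, and the genes named here are those with the highest or lowest ratio to SAG in their lists, so their low or high SAG level follows from that choice. *Sec61a1*, the pore of the translocon, had 344 FPKM for PF, 121 for SAG, 352 for COR, and 231 for GP. *Copz2*, a COPI subunit, was at 403, 155, 423, and 406 FPKM. *Kdelr3*, a receptor that retrieves ER proteins and the 1 gene of the IRE1 branch past 3-fold, was at 485, 135, 454, and 377 FPKM. *Sec16b*, which marks ER exit sites, joined *Sec24d* as the COPII genes past 3-fold for COR vs SAG, at 2.30, although its level was low (2.09 FPKM in SAG and 14.2 in COR). The lowest ratios belonged to less abundant genes, *Klhl12* (-0.23 for COR vs SAG) in the COPII list and, for PF vs SAG, *Copg2* (-1.23) in the COPI list, *Sec63* (-0.63) in the translocon list, and *Edem3* (-0.63) in the IRE1 list.

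The folding and degradation lists were closer to the median of all genes. In the ATF6 branch, 12 of 13 genes were above 0 for COR vs SAG with a median of 0.30, a count that was 10 with FPKM rescaled to an equal sum and 9 after quantile normalization. ER-associated degradation gave 11 of 14 (0.30), a count that was 9 (0.18) with FPKM rescaled to an equal sum. The lectin chaperone cycle of *Calr* and *Canx* gave 6 of 9 (0.07), where the count was 3 of 9 with FPKM rescaled to an equal sum and after quantile normalization. For PF vs SAG, the outer genes of the ATF6 branch were *Mbtps1*, the protease that makes the first cut in ATF6, at 88.0 FPKM in PF and 39.0 in SAG, and *Sdf2l1*, an ER chaperone component, at 25.8 and 47.7. Those of the lectin cycle were *Mogs*, the first glucosidase (78.6 and 30.4 FPKM), and *Calr3* (0.54 and 1.43). Those of degradation were *Ube2g2*, a ubiquitin-conjugating enzyme (58.5 and 30.7), and *Derl3*, a derlin of the exit channel, at 0.097 FPKM in PF and 7.72 in SAG, the 1 gene of that list past 3-fold (-2.99).

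**Figure D4:**
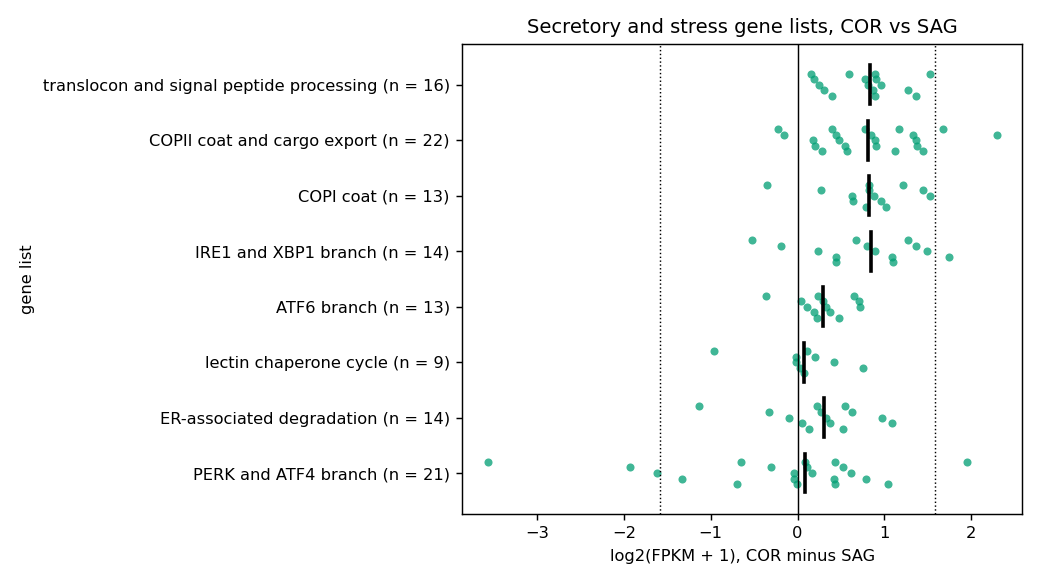
Log2(FPKM + 1) ratios of COR vs SAG for the genes of 8 lists, 1 point per gene, with a black bar at each list's median and dotted lines at 3-fold; the vertical spread of points carries no value. The medians of the translocon, COPII, COPI, and IRE1 lists lie between 0.81 and 0.85, and those of the ATF6, lectin, degradation, and PERK lists between 0.07 and 0.30.

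The PERK and ATF4 branch went in both directions. For COR vs SAG, 11 of 21 genes were above 0 (median 0.09, or -0.04 with FPKM rescaled to an equal sum), 1 was 3-fold higher in COR, and 3 were 3-fold lower, against 3.11% and 6.15% of all genes. Of the 18 genes of this branch at 5 FPKM or more, SAG was the lowest library for 1 and the highest for 5 (background 26.6%). COR was the highest for 10 (22.1%) and PF the lowest for 8 (34.3%). For PF vs COR, 15 of 20 genes were below 0, with a median of -0.65 against 0.05 for all genes. These counts of lowest and highest libraries were not recomputed under other scalings. *Atf3*, a stress factor that is also an immediate early gene, had 6.54 FPKM for PF, 213 for SAG, 17.1 for COR, and 66.5 for GP (-3.57 for COR vs SAG). *Ppp1r15a* (GADD34), which restores translation after PERK has acted, was at 18.1, 103, 32.8, and 36.8 FPKM (-1.62). *Cth*, an enzyme of cysteine synthesis, was at 0.13, 3.18, 0.099, and 2.14 FPKM (-1.93). In these 3 genes SAG was the highest library, as it was for *Ddit3*, but they were named for their low COR vs SAG ratios. Their SAG level above that of COR thus follows from that choice. *Nupr1*, a stress-induced nuclear protein, ran the other way, at 189, 114, 442, and 381 FPKM (1.95). *Eif2ak3*, which encodes PERK itself, was at 5.40, 5.80, 9.42, and 7.32 FPKM. The higher levels of *Atf3* and *Ppp1r15a* in SAG thus stood beside a level of *Atf4* that differed by 0.09 between COR and SAG.

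**Figure D5:**
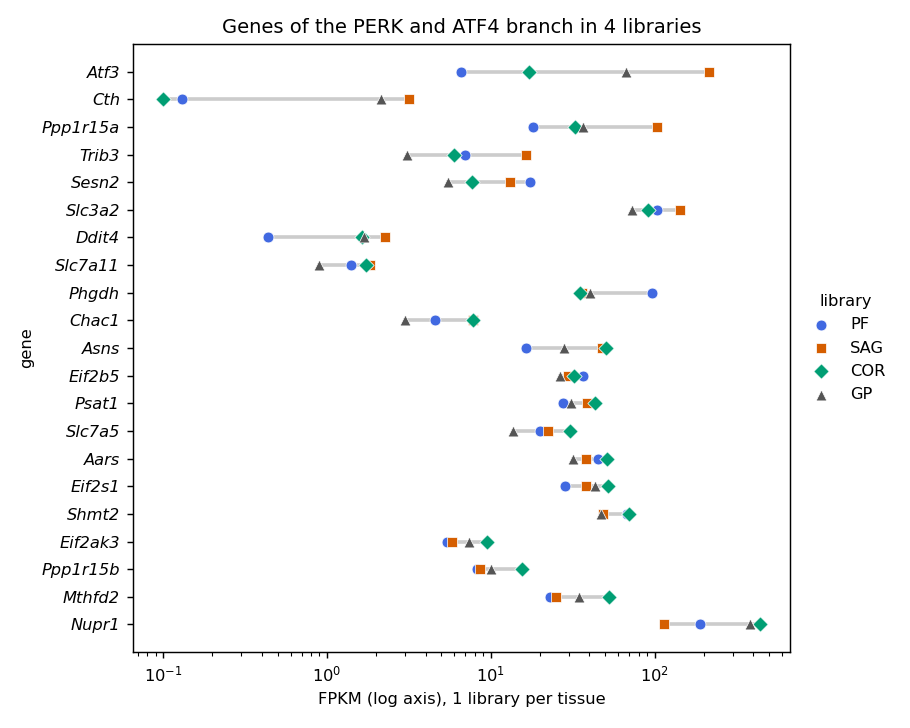
FPKM (log axis) of the 21 genes of the PERK and ATF4 branch in the 4 libraries, 1 point per library, ordered by the log2 ratio of COR vs SAG from the lowest at the top. SAG is far to the right for *Atf3* (213) and *Ppp1r15a* (103), and to the left for *Nupr1* (114).

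Genes with the promoter elements were counted over all RefSeq windows. For COR vs SAG, 0 of the 17 tested genes with an ERSE were 3-fold apart in either direction, 9 were above 0, and the median was 0.07. Of 8 tested genes with its second form, ATTGGNCCACG, 0 were 3-fold apart and 6 were above 0, with a median of 0.50. Of 109 genes with TGACGTGG, 8 were 3-fold higher and 5 lower (median 0.11), where over all genes 3.11% were higher and 6.15% lower (median -0.02). *Sec24d*, *Sec16b*, and *Kdelr3*, named above for their ratios, are among the 8. For PF vs SAG, 6 of 111 were higher and 9 lower, near the 6.64% and 9.04% of all genes. For SAG vs GP, 4 of 109 were higher and 4 lower, near 4.80% and 3.86%. The values that follow are again for COR vs SAG. Of 249 genes with TGATGNAA, 11 were 3-fold higher and 14 lower (0.01). Of the listed genes besides *Sec24d*, the windows of *Sec16b*, *Sec23a*, *Kdelr3*, *Arf1*, *Copb1*, *Copb2*, *Gbf1*, *Ube2j1*, and *Vcp* held TGACGTGG. The ratios ran down to 0.13 in *Vcp*. In the PERK list, the windows of *Aars*, *Asns*, *Atf3*, *Chac1*, *Nupr1*, *Slc7a11*, and *Trib3* held TGATGNAA, and *Atf3* and *Nupr1* lay at opposite ends of that list. Those of *Faf2*, *Herpud1*, and *Kdelr1* in other lists held it too.

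The genes whose pattern was most like that of *Creb3l1* and *Sec24d* were found by Euclidean distance of mean-centred log2(FPKM + 1) values over the 4 libraries, among 8329 genes with a mean of 5 FPKM or more. Over only 4 points this is a description. Nearest to *Creb3l1* were *Pdlim1*, an actin-associated protein, at a distance of 0.221 (41.9, 5.27, 39.8, and 23.8 FPKM in PF, SAG, COR, and GP), *Fkbp11*, a prolyl isomerase of the ER, at 0.231 (400.3, 75.4, 394, and 282), and *Fstl3*, a secreted activin binding protein, at 0.234 (34.9, 4.46, 31.4, and 18.5). Nearest to *Sec24d* were *Pwwp2b* at 0.0544 (5.52, 2.005, 8.22, and 4.95 FPKM), *Lrrc59*, a membrane protein of the ER, at 0.0707 (209, 85.7, 283, and 188), and *Fkbp10*, a collagen chaperone of the ER, at 0.0854 (409, 183, 542, and 371). Their low level in SAG follows from the choice by likeness to these 2 genes.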

How the data were processed

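Per the submitters' processing notes and the study's methods, the authors aligned read pairs to the mm9 genome with STAR 2.5.1b and estimated expression with Cuffdiff (Cufflinks 2.2.1) on the iGenomes gene model. The deposited files hold FPKM by gene symbol. How Cuffdiff scaled the libraries is not given in the sources used here. Samples were grouped by their labels, 1 library per tissue, so no test was made. Single-cell data were not used here.

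From these values, log2(FPKM + 1) ratios were computed for the 6 pairs of libraries, with a threshold of 3-fold, in Python 3.11.15 (pandas 2.3.3, numpy 2.4.6, statsmodels 0.14.6; plots with matplotlib 3.10.9). The ratio, the 3-fold count, and the median-ratio scaling were tried on simulated counts of well-expressed genes with known changes. The other steps were not tried in this way. Gene positions are those of GENCODE vM1 (mm9). The 10 genes, the pathway and marker lists, and the rules were chosen with earlier results of these data known. Genes named from each list were its highest and lowest ratio in the pair with the most genes past 3-fold, and up to 6 genes past 3-fold. Where pairs tied, the first in a fixed order was used, which was PF vs SAG. This includes the translocon, COPI, ATF6, and lectin lists, which had 0 genes past 3-fold in any pair. *Sec61a1*, *Copz2*, and *Kdelr3* are given in all libraries under this rule; *Creb3*, *Sec24c*, *Sec23a*, *Sar1a*, their paralogs, and *Eif2ak3* were added as family members or partners after their values were seen. Alternatives were a pseudocount of 0.1, other filters, other scalings, a loess correction for GC content, and a 2-fold threshold; leaving out SAG was added after the data were seen.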

Additional observations from a re-analysis of the deposited data

How the results depend on the processing

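No paired analysis was possible because there is 1 library for each tissue and the labels carry no replicate numbers; leaving out a replicate could not be done for the same reason. Of the counts and medians by pair, 96 recomputed values stayed within a factor of 1.5 (counts) or 0.25 on the log2 scale (medians), and 6 did not. Part of the 96 could not move, because all 10 genes were at 1 FPKM or more in every library. Dropping the filter, or asking for 1 FPKM in both libraries, therefore left every count and median of the 10 genes unchanged. With the FPKM of each library rescaled to an equal sum, which moves the median of all genes to -0.26 for PF vs SAG, the median of the 10 genes for PF vs SAG was -0.34, and 1 gene was 3-fold apart for COR vs SAG, since *Sec24d* came to 1.55. After quantile normalization the median was -0.36 for PF vs SAG and 0.24 for SAG vs GP. At a 2-fold threshold, 2 genes were apart for PF vs SAG and 2 for SAG vs GP. Medians near 0 changed sign: PF vs SAG came to 0.16 with the GC correction, COR vs SAG to -0.09 after quantile normalization, SAG vs GP also to 0.11 with the equal sum, and PF vs GP to 0.0016 with median-ratio scaling. No ratio past 3-fold changed sign. *Creb3l1* kept between 1.82 and 2.51 for PF vs SAG and between 2.38 and 2.67 for COR vs SAG. Without SAG, the spans of *Creb3l1* and *Sec24d* were 0.78 and 0.63, and 0 of the 10 genes reached 2-fold. Depth limits the low genes most, and PF had 44.1% of the estimated fragments of SAG.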
